A study of Mus musculus with 45 samples.

Results

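The comparison described here set hearts that had carried a reversible constriction of the aorta (Rev-nAAC) against sham-operated hearts at 4 weeks of age. It used 10 of the 45 RNA-seq libraries of the series, all those labelled Rev-nAAC or sham at that age, with 5 libraries in each group. Every animal was wild type (WT), the tissue was left ventricle, and the operation was done within a day of birth. The series holds 9 groups of 5 libraries: a reversible constriction, a lasting constriction (nAAC) and a sham operation, each at 4, 6 and 8 weeks. Its design text presents the reversible group as reverse remodeling, the lasting group as remodeling and the sham group as the control. The labels used here do not say when the reversible constriction was released, nor whether each library came from a separate animal, so the p-values below measure the spread between libraries. Each library is ventricular tissue with all its cell types, and fewer cells of a type cannot be told apart from less RNA per cell.

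A narrowed aorta raises the pressure against which the left ventricle ejects. Heart muscle cells under such load are known to switch on a set of genes that are active in the fetal ventricle or that respond to stretch. These include natriuretic peptides, which are hormones that promote salt and water loss, the slow myosin heavy chain Myh7 and skeletal muscle actin Acta1. Lasting load is also known for matrix deposition by fibroblasts through TGF-beta and for lower levels of mitochondrial and calcium handling transcripts. In the mouse the first weeks after birth are also the time when heart muscle cells leave the cell cycle and take up their adult metabolism.

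Some of the load response genes that were called higher here hold a short DNA element known as MCAT, the binding site of TEAD transcription factors, at their promoters. The 4 promoters below are shown because they belong to such genes and hold the element within a 300-base window running from 250 bases before to 50 bases after a RefSeq start site (build GRCm38.p6). They are Nppb on the plus strand (chr4:147985650-147985949) and, on the minus strand, Acta1 (chr8:123894726-123895025), Myh7 (chr14:54994577-54994876) and Ankrd1 (chr19:36119795-36120094). Capitals mark MCAT, spelled CATTCC or, on the other strand, GGAATG. Each is given 5′ to 3′.
Nppb: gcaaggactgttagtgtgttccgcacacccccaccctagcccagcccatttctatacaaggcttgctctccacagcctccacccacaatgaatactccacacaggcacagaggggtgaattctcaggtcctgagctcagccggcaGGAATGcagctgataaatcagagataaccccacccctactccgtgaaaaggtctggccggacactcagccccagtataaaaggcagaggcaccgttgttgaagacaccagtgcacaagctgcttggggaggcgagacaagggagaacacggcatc
Acta1: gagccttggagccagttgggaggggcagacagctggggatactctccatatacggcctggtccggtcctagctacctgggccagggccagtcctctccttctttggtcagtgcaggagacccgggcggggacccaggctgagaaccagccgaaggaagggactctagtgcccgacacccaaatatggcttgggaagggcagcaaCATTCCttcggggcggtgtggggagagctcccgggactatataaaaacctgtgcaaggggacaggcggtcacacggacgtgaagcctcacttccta
Myh7: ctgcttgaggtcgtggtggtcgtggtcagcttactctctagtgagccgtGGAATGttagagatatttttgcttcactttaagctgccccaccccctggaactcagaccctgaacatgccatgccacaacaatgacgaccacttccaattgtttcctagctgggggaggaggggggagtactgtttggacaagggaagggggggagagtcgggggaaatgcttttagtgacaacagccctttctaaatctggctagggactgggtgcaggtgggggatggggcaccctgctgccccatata
Ankrd1: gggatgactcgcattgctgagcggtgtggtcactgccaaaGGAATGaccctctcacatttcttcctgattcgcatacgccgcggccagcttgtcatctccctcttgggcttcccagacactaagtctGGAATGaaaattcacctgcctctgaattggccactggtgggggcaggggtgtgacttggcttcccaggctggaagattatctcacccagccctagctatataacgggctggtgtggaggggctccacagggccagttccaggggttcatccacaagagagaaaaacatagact
The Ankrd1 window held 2 copies and the other 3 windows held 1 each. Of the 24 load response genes, 20 had a promoter in the RefSeq table and 6 of them (30.0%) held MCAT, beside 16.6% of all 27025 genes with a promoter there. Among all genes called with at least a 2-fold change, MCAT was held by 16.2% of the higher and 17.2% of the lower genes with a promoter. Both shares were near that of all genes. Of the genes tested that had a promoter, 14.9% held MCAT. In the 20 load promoters, AP-1 sites (TGANTCA on either strand) were in 3 (15%, beside 8.97%), CArG boxes in 2 (10%, beside 1.81%) and ERR sites in 0 (beside 1.43%). Of called genes with a promoter and at least a 2-fold change, 11.9% of the higher and 5.96% of the lower held AP-1. Among genes tested it was 6.62%. CArG boxes were in 1.42 and 2.52% (tested 1.67%), and ERR sites in 2.43 and 1.15% (tested 0.957%). These shares were not tested. The other 2 load promoters with MCAT were those of Flnc and Hspb1, which were not called in the fit of all 9 groups. Xirp1, Tead4, Tubb6 and Cryab had no entry. A match to these letters is a description of the window and no evidence of binding.

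Across 15444 genes tested with edgeR's quasi-likelihood test, 3902 (25.3%) differed between Rev-nAAC and sham ventricles at a Benjamini-Hochberg adjusted p under 0.05. Of these, 1886 (12.2%) were higher in Rev-nAAC and 2016 (13.1%) were lower. A change of at least 2-fold was found for 669 of the higher (4.33%) and 570 of the lower genes (3.69%). The median log2 fold change over all genes tested was -0.01. All 5 Rev-nAAC libraries lay above all 5 sham libraries for 1332 genes (8.62%) and below them for 1711 (11.1%).

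Library totals were 33178577 to 35191399 counts in Rev-nAAC and 33159458 to 33766406 in sham. The sexes were unequal: by Xist and 4 Y-linked genes, 3 Rev-nAAC libraries were male and 2 (replicates 2 and 5) female, while all 5 sham libraries were male. Rev-nAAC replicate 2 stood apart, with 1.13% of its counts from red cell genes and the highest levels of neutrophil genes. Replicate 5 had 0.393% from red cell genes, the other Rev-nAAC libraries 0.0419 to 0.153% and the sham libraries 0.0461 to 0.136%. Sham replicate 1 had the highest fat cell share of its group (0.0161%) and an atrial gene share of 0.0123%, against 0.00304 to 0.00450% in the other sham libraries. Without Rev-nAAC replicate 2 and sham replicate 1, 2765 genes were called (1460 higher and 1305 lower). In male libraries alone 3804 were called. A library titled nAAC at 4 weeks (replicate 1) carries a sham treatment tag and was grouped by its title. Levels below are in CPM, a gene's counts scaled to a common library size after TMM normalisation. In that library Nppa (5904 CPM) and Myh7 (5740 CPM) lay far above every sham library. No result here uses it except through the shared estimate of spread, the comparison with nAAC and the alternative that counts it as sham.

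**Figure D1:**
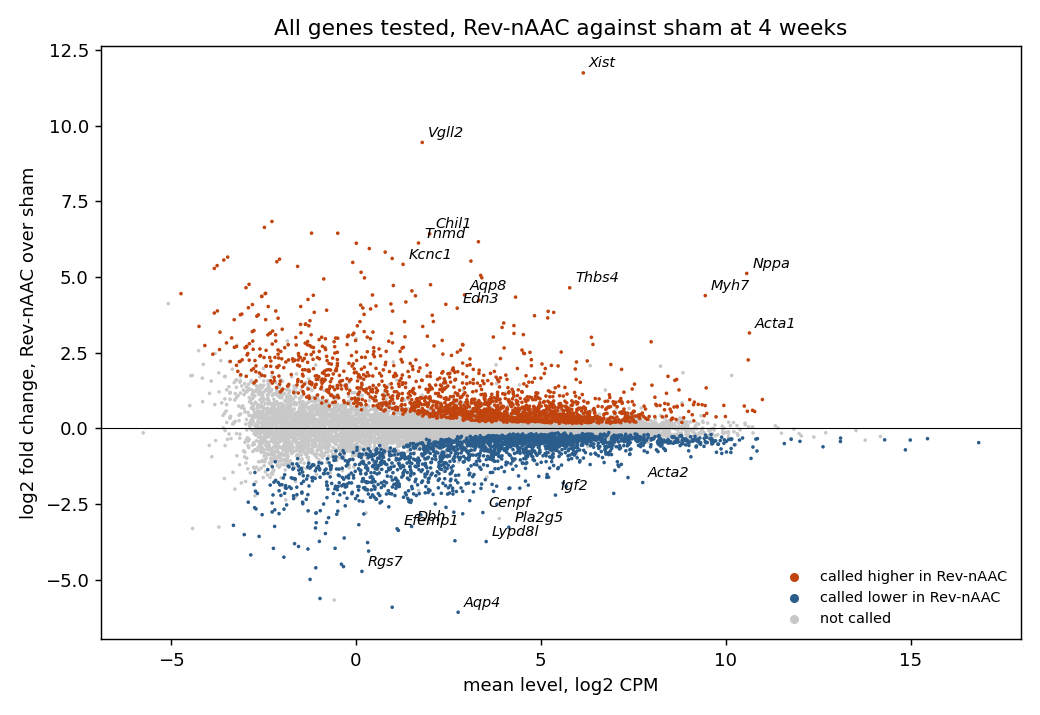
Log2 fold change of each gene tested, Rev-nAAC over sham at 4 weeks, against its mean level in log2 CPM; colours mark genes called higher or lower at an adjusted p under 0.05. The 1886 higher and 2016 lower genes spread over the whole range of levels; the topmost point is Xist, the X-inactivation RNA, carried by the 2 female Rev-nAAC libraries.

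Genes of the load response were higher in Rev-nAAC ventricles. Of 24 tested, 19 rose and 0 fell (all genes: 12.2% higher, 13.1% lower), with a median log2 fold change of 0.93 beside -0.01 over all genes. The natriuretic peptide gene Nppa (chr4:148000722-148002074) had 1369, 5313, 4635, 1214 and 2247 CPM in the Rev-nAAC libraries, against 130, 73.2, 78.0, 80.5 and 64.6 CPM in sham libraries. The lowest Rev-nAAC library stood far above the highest sham library. The log2 fold change was 5.12 ± 0.52 (SE; adjusted p 4.1e-09). Nppb, which encodes the second cardiac natriuretic peptide, had 285, 892, 965, 263 and 677 CPM in Rev-nAAC and 186, 197, 283, 180 and 162 CPM in sham. Replicates 1 and 4 of Rev-nAAC were near the highest sham library, so the groups touched, and the log2 fold change was 1.61 ± 0.38 (adjusted p 0.0017).

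Myh7 and Acta1, fetal contractile protein genes of the load response list, rose. Myh7 (chr14:54970684-54994626), the slow myosin heavy chain, had 677, 3573, 1015, 594 and 811 CPM in Rev-nAAC, against 59.7, 62.4, 67.2, 70.9 and 59.5 CPM in sham. All 5 Rev-nAAC libraries were above all sham libraries and replicate 2 was well above the other 4 (log2 fold change 4.38 ± 0.56, adjusted p 3.4e-07). Its adult partner Myh6 averaged 12112 ± 3946 CPM in Rev-nAAC and 15905 ± 1534 CPM in sham (SD, n = 5 each) and was not called (-0.39, adjusted p 0.090). Acta1 (chr8:123891758-123894775), skeletal muscle actin, had 2868, 1996, 3108, 2583 and 3819 CPM in Rev-nAAC and 616, 207, 246, 321 and 231 CPM in sham (3.15 ± 0.49, adjusted p 1.1e-05). Sham replicate 1 was the highest of its group for Acta1, yet every Rev-nAAC library exceeded it. How reads shared by near-identical actins and myosins were counted is not given in the sources used here, so values of such pairs carry that uncertainty.

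Ankrd1, Xirp2, Synpo2l and Des, further members of the list, rose as well. Ankrd1, a stretch-responsive ankyrin repeat protein, had 2311, 3526, 3427, 1971 and 1704 CPM in Rev-nAAC, against 633, 482, 456, 642 and 495 CPM in sham (2.26 ± 0.34, adjusted p 5.4e-06). Xirp2, an actin-binding protein of the intercalated disc, had 1107, 598, 1484, 913 and 989 CPM in Rev-nAAC and 358, 396, 456, 393 and 418 CPM in sham (1.33 ± 0.22, adjusted p 1.7e-05). The groups did not overlap for either gene. Synpo2l, a sarcomere protein, rose by 0.89 ± 0.18 (adjusted p 0.00022) and Des, the muscle intermediate filament desmin, by 0.56 ± 0.12 (adjusted p 0.00078). The epithelial-type keratins Krt8 and Krt18 were rare in sham. Krt8 averaged 1.99 ± 1.14 CPM in Rev-nAAC and 0.0251 ± 0.0141 CPM in sham, and Krt18 averaged 5.48 ± 2.55 CPM in Rev-nAAC and 0.232 ± 0.170 CPM in sham (SD, n = 5 each). Their log2 fold changes were 6.11 ± 0.65 (adjusted p 5.0e-09) and 4.54 ± 0.62 (adjusted p 1.1e-06).

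Vgll2, which encodes a cofactor of TEAD factors, gave 1267 reads over the 5 Rev-nAAC libraries and 1 read over the 5 sham libraries. The ratio, adjusted for library size, was 1112, with an exact 95% interval for counting error of 199 to 43966. Tead4, a TEAD factor itself, rose more modestly, at 4.47 ± 0.425 CPM in Rev-nAAC and 3.07 ± 0.542 CPM in sham (0.54 ± 0.20, adjusted p 0.039). Its call was lost without any 1 of 6 libraries (Rev-nAAC replicates 1, 3 and 4 and sham replicates 1, 3 and 5), with adjusted p of 0.055 to 0.098. The 5 members that were not called were Flnc (0.31, adjusted p 0.057), Hspb1 (0.47, adjusted p 0.14), Xirp1 (0.32, adjusted p 0.21), Csrp3 (0.18, adjusted p 0.26) and Tubb6 (-0.20, adjusted p 0.39). Flnc was called higher by DESeq2 (adjusted p 0.035) and by limma voom (0.015), in male libraries (0.011) and with sex as a covariate (0.0069). Hspb1 was called in male libraries (0.026), with sex as a covariate (0.048) and in edgeR's fit of only the compared groups (0.036). Rcan1, an inhibitor and target of calcineurin, had 343 CPM in Rev-nAAC replicate 3 and was not called without that library (0.53, adjusted p 0.13). With the library of conflicting labels counted as sham, 12 members were called, and Nppa (1.49, adjusted p 0.20) and Myh7 (0.40, adjusted p 0.80) were not.

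**Figure D2:**
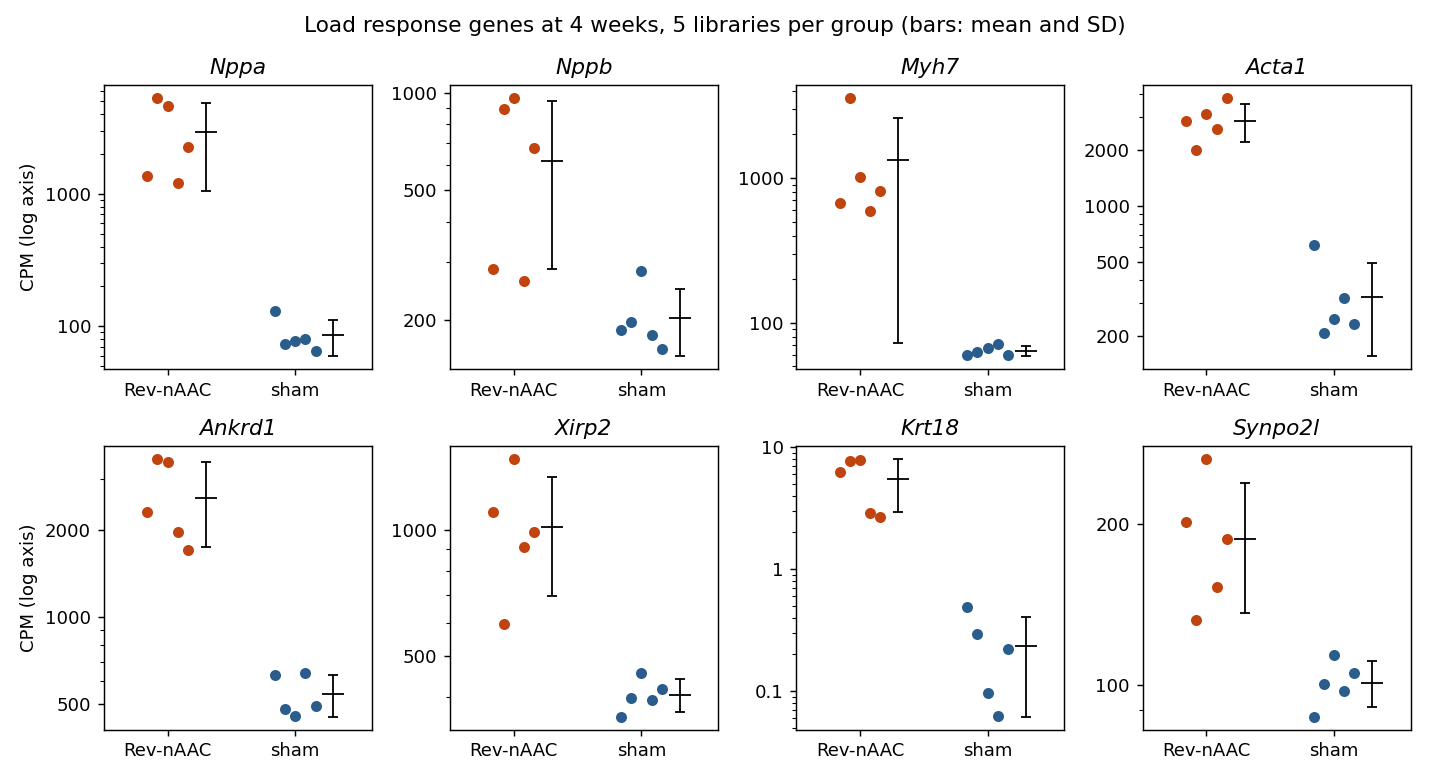
Level of 8 load response genes in CPM on log axes, with each point 1 library at 4 weeks, Rev-nAAC left of sham; the bar is the mean and SD over 5 libraries. The Rev-nAAC points lie above every sham point for 7 genes, while for Nppb the lowest Rev-nAAC library (263 CPM) is below the highest sham library (283 CPM).

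The 14 largest rises were taken among called genes whose groups did not overlap and whose higher group averaged 2 CPM or more. They held 3 load response genes (Vgll2, Nppa and Krt18) and 11 others. Tnmd, the tendon membrane protein tenomodulin, had 5.02, 2.74, 17.4, 2.66 and 4.06 CPM in Rev-nAAC, against 0.183, 0.259, 0, 0 and 0 CPM in sham (6.12 ± 0.99, adjusted p 1.6e-05). Kcnc1, a voltage-gated potassium channel best known from fast-firing neurons, had 7.15, 2.80, 2.36, 4.53 and 6.86 CPM in Rev-nAAC and 0.0914, 0.129, 0.0321, 0.252 and 0.0316 CPM in sham (5.42 ± 0.62, adjusted p 3.5e-08). Aqp8, a water channel, averaged 14.6 ± 3.4 CPM in Rev-nAAC and 0.689 ± 0.157 CPM in sham (4.40 ± 0.43, adjusted p 2.0e-09). All 3 were low in every sham library and raised in every Rev-nAAC library. Chodl (5.94), Fam180a (4.97), Serpinb1c (4.72) and Lman1l (4.40) were also among the 14, as was Thbs4, described with the matrix genes. The rise of Chil1, a chitinase-like secreted protein, and of Lcn2, a siderophore-binding protein of neutrophils, was uneven. Rev-nAAC replicate 2 held 33.6 and 88.2 CPM of them, whereas the other 4 Rev-nAAC libraries held 0.362 to 3.72 and 1.79 to 4.23 CPM, and sham libraries at most 0.194 and 0.884 CPM.

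The largest fall was that of Aqp4, another water channel. It had 0.464, 0.109, 0.0769, 0.241 and 0.0864 CPM in Rev-nAAC libraries, against 14.3, 13.7, 13.9, 12.2 and 13 CPM in sham libraries, a log2 fold change of -6.08 ± 0.54 (adjusted p 3.6e-10). Rgs7 (chr1:175059076-175492862), a regulator of G protein signalling, had 0.0288 to 0.151 CPM in Rev-nAAC and 2.01 to 2.52 CPM in sham (-4.73 ± 0.54, adjusted p 3.5e-08). The groups lay far apart, and the lowest Rev-nAAC value rests on 1 read. Drd2, a dopamine receptor, averaged 0.165 ± 0.0927 CPM in Rev-nAAC and 2.32 ± 0.416 CPM in sham (-3.78 ± 0.45). Dbh, the enzyme that makes noradrenaline from dopamine, averaged 0.539 ± 0.409 CPM in Rev-nAAC and 5.14 ± 0.773 CPM in sham (-3.25 ± 0.38). Akap5, an anchor that places protein kinase A near its targets, fell by 2.77 on the log2 scale (SE 0.46).

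The other 9 of the 14 largest falls ranged from -3.74 to -2.51. Efemp1, the matrix glycoprotein fibulin-3, fell by 3.37 (SE 0.57), the secreted phospholipase Pla2g5 fell by 3.27 (SE 0.39) and the metalloprotease Adamts12 fell by 2.83 (SE 0.29). Tll2, a tolloid-like protease, and the collagenase Mmp13 fell by 2.83 and by 2.60. Lypd8l (-3.74), Plekhh1 (-2.61), the amino acid transporter Slc36a2 (-2.51) and Cenpf (-2.79), a kinetochore protein, completed the list. Pla2g5 had 4.23, 1.36, 1.31, 7.0 and 2.68 CPM in Rev-nAAC, against 27.6 to 35.8 CPM in sham. Every Rev-nAAC library was below every sham library for each of these genes, since the choice required it.

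The lists of genes, which were chosen with earlier results of these data known, are compared in the plot of called shares. The count for each list at 4 weeks stands beside 12.2% of all genes called higher and 13.1% called lower. Beyond the load group, the largest called shares in the higher direction were in TGF-beta and matricellular genes, and in the lower direction in nuclear respiratory chain, cell cycle and citric acid cycle genes. With the library of conflicting labels counted as sham, 2737 genes were called, 1291 higher and 1446 lower. Called higher there were 13 TGF-beta and matricellular genes (29 tested in the main fit) and 3 clock genes (18 tested). Called lower there were 18 nuclear respiratory chain genes (48 tested) and 2 fatty acid oxidation genes (32 tested). In the same setting 5 collagen and structural matrix genes and 1 gene of the angiotensin list were called higher, and 3 adult contractile protein genes, 5 mitochondrial genome genes and 3 macrophage markers were called lower. The atrial muscle, lymphocyte and mesothelial markers called higher there numbered 0 in each list. Without Rev-nAAC replicate 2 and sham replicate 1, 1460 genes were called higher and 1305 lower. There, 4 calcium handling, 8 collagen and structural matrix, 4 fatty acid oxidation, 4 mitochondrial genome and 3 angiogenic genes were called lower. In that fit 2 genes of the angiotensin list and 5 matrix proteases and inhibitors were called higher. In male libraries, where 1978 genes were called higher and 1826 lower, 4 calcium handling and 6 fatty acid oxidation genes were called lower.

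**Figure D3:**
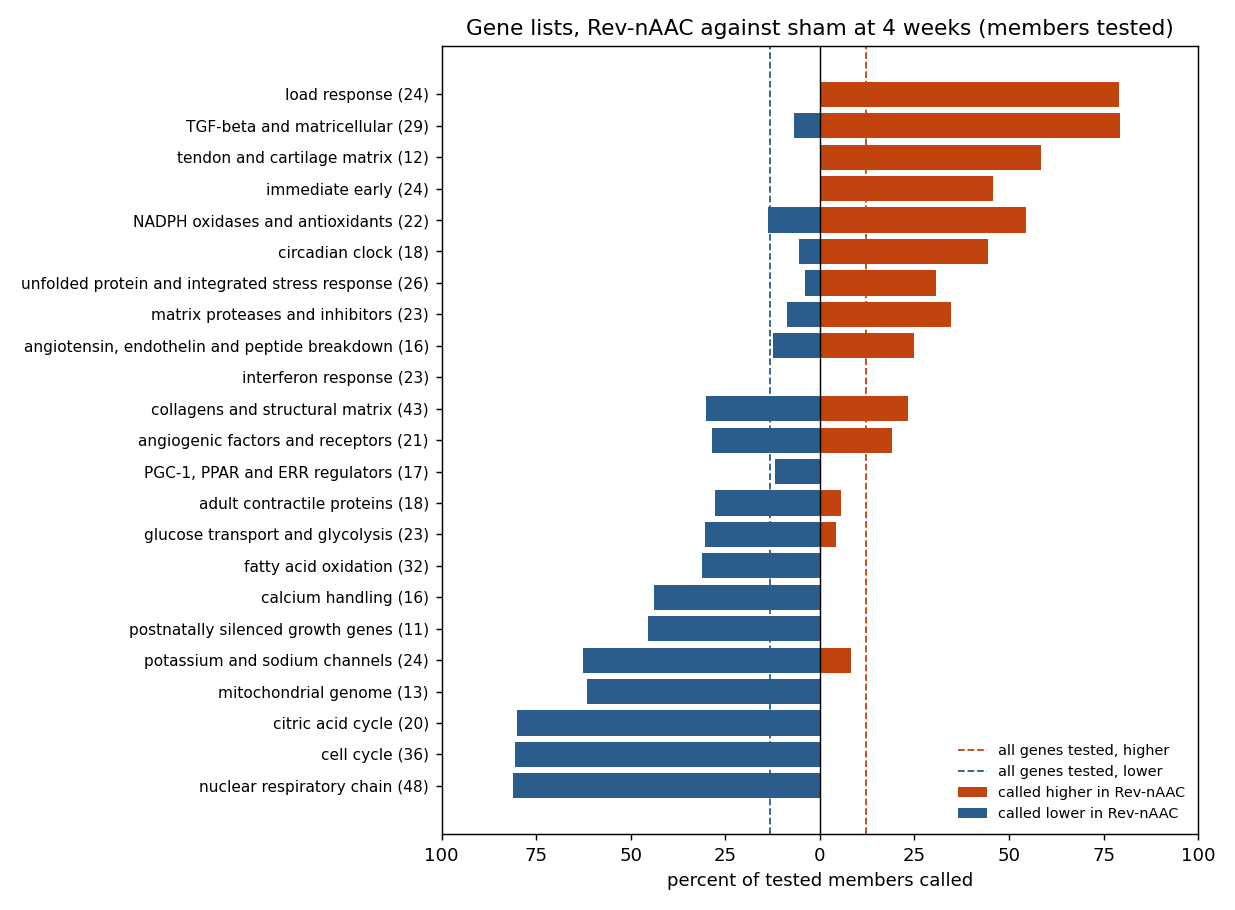
Percent of the tested members of each gene list that were called higher (right) or lower (left) in Rev-nAAC than in sham at 4 weeks; dashed lines mark the 12.2% and 13.1% of all genes tested. Load response (19 of 24) and TGF-beta and matricellular genes (23 of 29) extend furthest to the right, and nuclear respiratory chain genes (39 of 48) furthest to the left.

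Of 18 adult contractile protein genes tested, 1 rose, 5 fell and 12 were not called (all genes: 12.2% higher, 13.1% lower), with a median of -0.17. Ckm, muscle creatine kinase, had 1483, 1100, 1019, 1611 and 1647 CPM in Rev-nAAC and 2477, 2211, 2390, 2198 and 2281 CPM in sham (-0.75 ± 0.14, adjusted p 0.00011). Tpm1, the main tropomyosin, fell by 0.61 (SE 0.11, adjusted p 3.0e-05) and Tnni3, the adult cardiac troponin I, fell by 0.51 (SE 0.14, adjusted p 0.0059). Tcap, the titin cap protein, was the exception in direction, at 735 ± 287 CPM in Rev-nAAC and 404 ± 25.8 CPM in sham (0.86 ± 0.20, adjusted p 0.0012). Without Rev-nAAC replicate 4, 8 members were called lower.

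Of 16 calcium handling genes, 0 rose and 7 fell (all genes: 12.2% higher, 13.1% lower), with a median of -0.33. Ryr2, the calcium release channel of the sarcoplasmic reticulum, had 1102, 583, 613, 941 and 884 CPM in Rev-nAAC, against 1195, 1388, 1565, 1404 and 1626 CPM in sham (-0.80 ± 0.21, adjusted p 0.0036). Slc8a1, the sodium-calcium exchanger, fell by 0.66 (SE 0.17), the channel subunit Cacna2d1 fell by 0.54 (SE 0.12) and the calcium store protein Casq2 fell by 0.41 (SE 0.11). Replicates 1 and 4 of Rev-nAAC were the nearest to sham for Ryr2, and the groups did not overlap. Atp2a2, the pump that returns calcium to the store, had 9040, 6275, 5688, 9343 and 7043 CPM in Rev-nAAC and 9165 to 11350 CPM in sham. The groups overlapped, and its call (-0.44, adjusted p 0.019) was lost without Rev-nAAC replicate 2 (adjusted p 0.069), Rev-nAAC replicate 3 (0.077) or sham replicate 3 (0.054). Without Rev-nAAC replicate 2, 4 members of this list were called lower, and without Rev-nAAC replicate 4, 11 were.

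Channels of the action potential were lower as a group. Of 24 potassium and sodium channel genes, 15 fell and 2 rose, with a median of -0.50. Hcn4, the pacemaker channel, had 4.66, 1.14, 0.974, 4.10 and 3.28 CPM in Rev-nAAC and 11.9, 14.3, 12.9, 10.6 and 10.1 CPM in sham (-2.08 ± 0.41, adjusted p 0.00021). Its relative Hcn2 had 10.2 to 13.7 CPM in Rev-nAAC and 24.6 to 31.5 CPM in sham (-1.25 ± 0.15, adjusted p 7.0e-08). Kcnj3 and Kcnj5, which form the acetylcholine-gated potassium channel, fell by 1.62 (SE 0.34) and by 0.84 (SE 0.19). Kcnj2, an inward rectifier that sets the resting potential, fell by 0.84 (SE 0.22), and Kcne1, a subunit of the slow delayed rectifier, fell by 1.85 (SE 0.34). The groups did not overlap for any of these 6 genes. Without Rev-nAAC replicate 3, 9 of the channel genes were called lower.

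TGF-beta ligands, their targets and matricellular proteins were higher in Rev-nAAC. Of 29 tested, 23 rose and 2 fell (median 1.46). Without Rev-nAAC replicate 3, 16 were called higher. Among the ligands, Tgfb2 had 16.6, 22.1, 35.3, 14.6 and 19.9 CPM in Rev-nAAC and 8.59, 8.90, 6.29, 6.26 and 7.24 CPM in sham (1.54 ± 0.25, adjusted p 1.7e-05). Tgfb1 averaged 34.5 ± 6.10 CPM in Rev-nAAC and 33.1 ± 2.1 CPM in sham and was not called (0.06, adjusted p 0.83). Tgfb3 was called (0.68, adjusted p 0.0067), but not without Rev-nAAC replicate 3 (adjusted p 0.081). Among the proteins that store the latent ligand, Ltbp2 rose by 3.64 ± 0.58 while Ltbp1 fell by 0.73 (SE 0.12), with 29.8 to 36.7 CPM in Rev-nAAC and 52.6 to 54.5 CPM in sham.

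Among TGF-beta targets, Ccn2, connective tissue growth factor, had 167, 198, 482, 128 and 181 CPM in Rev-nAAC and 49.4 to 70.4 CPM in sham (1.95 ± 0.38, adjusted p 0.00021). The inhibitory Smad7 rose by 1.39 ± 0.19 (adjusted p 9.1e-07). The matricellular Thbs4, Comp, Ccn5 and Cilp rose by 4.64, 3.72, 3.09 and 2.77. Rev-nAAC replicate 3 was the highest library for Thbs4 (224 CPM), Ccn2, Comp and Cilp. Periostin (Postn), the matricellular product of activated fibroblasts, had 750 CPM in that library and 121 to 189 CPM in the other 4, against 75.5 to 141 CPM in sham. Its call (1.46, adjusted p 0.019) was lost without replicate 3 (0.62, adjusted p 0.31). Acta2, smooth muscle actin and a mark of myofibroblasts, went the other way, with 76.7 to 125 CPM in Rev-nAAC and 228 to 504 CPM in sham (-1.79 ± 0.18, adjusted p 3.6e-09).

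Collagens and other structural matrix genes split. Of 43 tested, 10 rose and 13 fell (all genes: 12.2% higher, 13.1% lower), with a median of -0.01. The genes that rose included the small proteoglycan biglycan (Bgn, 0.94 ± 0.24, adjusted p 0.0028), the fibulin Fbln1 (1.02 ± 0.16, adjusted p 1.0e-05) and the fibril-associated collagen Col12a1 (3.33 ± 0.62, adjusted p 0.00012). The genes that fell included basement membrane members. Col4a1, a chain of collagen IV, had 764, 633, 919, 592 and 696 CPM in Rev-nAAC, against 1038, 1144, 1084, 1394 and 1129 CPM in sham (-0.68 ± 0.16, adjusted p 0.0015). The linker proteins Nid1 and Nid2 fell by 0.71 (SE 0.18) and by 0.79 (SE 0.11), and the collagen VI chain Col6a3 fell by 1.20 (SE 0.25). The fibrillar Col1a1 averaged 209 ± 111 CPM in Rev-nAAC and 186 ± 30.8 CPM in sham and was not called (0.17, adjusted p 0.69). Col3a1 was called lower (-0.94, adjusted p 0.016), though not without Rev-nAAC replicate 2 (adjusted p 0.068) or replicate 4 (0.051), nor in male libraries (0.10).

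Of 23 matrix proteases and inhibitors, 8 rose and 2 fell (all genes: 12.2% higher, 13.1% lower). Timp3, an inhibitor of metalloproteases, had 504, 422, 436, 506 and 464 CPM in Rev-nAAC and 214, 206, 222, 205 and 201 CPM in sham (1.15 ± 0.17, adjusted p 2.1e-06). The membrane-bound Mmp15 fell by 0.81 (SE 0.15). The calls of Mmp3, Mmp8 and Mmp9 rested on Rev-nAAC replicate 2: without it the adjusted p was 0.091, 0.10 and 0.43, and 5 members were called higher. Of 12 tendon and cartilage matrix genes, 7 rose and 0 fell (median 2.28). They included the tendon transcription factor Scx, at 9.60 ± 2.83 CPM in Rev-nAAC and 3.19 ± 0.562 CPM in sham (1.59 ± 0.27, adjusted p 2.7e-05). Sham replicate 1 also held 14.9 CPM of Fmod, a tendon proteoglycan of the matrix list, where the other sham libraries held 0.385 to 2.62 CPM. With that library and Rev-nAAC replicate 2 left out, 9 tendon and cartilage genes were called higher. That fit filtered genes anew, so the members tested may differ from the 12.

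Transcripts of the mitochondrial genome took a smaller share of each Rev-nAAC library. The share was 23.1, 22.8, 22.7, 26.6 and 24.0% of counts in Rev-nAAC and 28.1, 30.9, 28.8, 29.7 and 28.8% in sham. The groups did not overlap, and the means of 23.9 ± 1.64% and 29.3 ± 1.08% (SD, n = 5 each) differed by -5.39 percentage points (two-sided exact permutation test, p 0.0079, the smallest this design can give). Of 13 protein-coding mitochondrial genes, 8 fell and 0 rose (median -0.39). COX1, a core subunit of cytochrome oxidase, had 90207 to 116040 CPM in Rev-nAAC and 126620 to 146060 CPM in sham (-0.48 ± 0.09, adjusted p 0.00015). ND6 (-1.09) lies on the other strand from its neighbours, and ATP6 and ND4L overlap ATP8 and ND4, so reads could be split between them.

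The nuclear genes of the respiratory chain moved with them. Of 48 tested, 39 fell and 0 rose (all genes: 13.1% lower), with a median of -0.38. For 39 members every Rev-nAAC library was below every sham library (all genes: 11.1%). Cycs, cytochrome c, had 488, 375, 389, 547 and 567 CPM in Rev-nAAC and 769, 700, 750, 660 and 674 CPM in sham (-0.59 ± 0.13, adjusted p 0.00063). Ndufs8 of complex I fell by 0.56 (SE 0.13), Uqcrb of complex III fell by 0.57 (SE 0.12) and Cox7a1 of complex IV fell by 0.55 (SE 0.15). Changes were small, and 24 members were called lower without Rev-nAAC replicate 2 and sham replicate 1.

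Transcripts of fuel oxidation genes were lower to differing extents. Of 20 citric acid cycle genes, 16 fell and 0 rose (median -0.40). Sucla2, a subunit of succinyl-CoA synthetase, had 437, 292, 320, 465 and 397 CPM in Rev-nAAC, against 594 to 666 CPM in sham (-0.75 ± 0.09, adjusted p 1.7e-07). Citrate synthase (Cs) fell by 0.67 (SE 0.11) and Idh3a by 0.57 (SE 0.10). Of 32 fatty acid oxidation genes, 10 fell and 0 rose, with a median of -0.20. Acaa2, a thiolase of the final step, averaged 469 ± 143 CPM in Rev-nAAC and 715 ± 27.5 CPM in sham (-0.61 ± 0.17, adjusted p 0.0079). The fatty acid list was sensitive to single libraries: 4 members were called without Rev-nAAC replicate 3, and 6 without Rev-nAAC replicate 2 or without sham replicate 1, 3 or 5. Of 17 PGC-1, PPAR and ERR regulators, which drive these genes, 0 rose and 2 fell (median -0.12). This called share of 11.8% was below the 13.1% of all genes called lower. With Rev-nAAC replicate 1, 2 or 3 or sham replicate 1, 2, 3 or 5 left out, 1 fell. The coactivator Ppargc1a ranged from 39.1 to 167 CPM in Rev-nAAC and from 80.7 to 102 CPM in sham (-0.14, adjusted p 0.81).

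**Figure D4:**
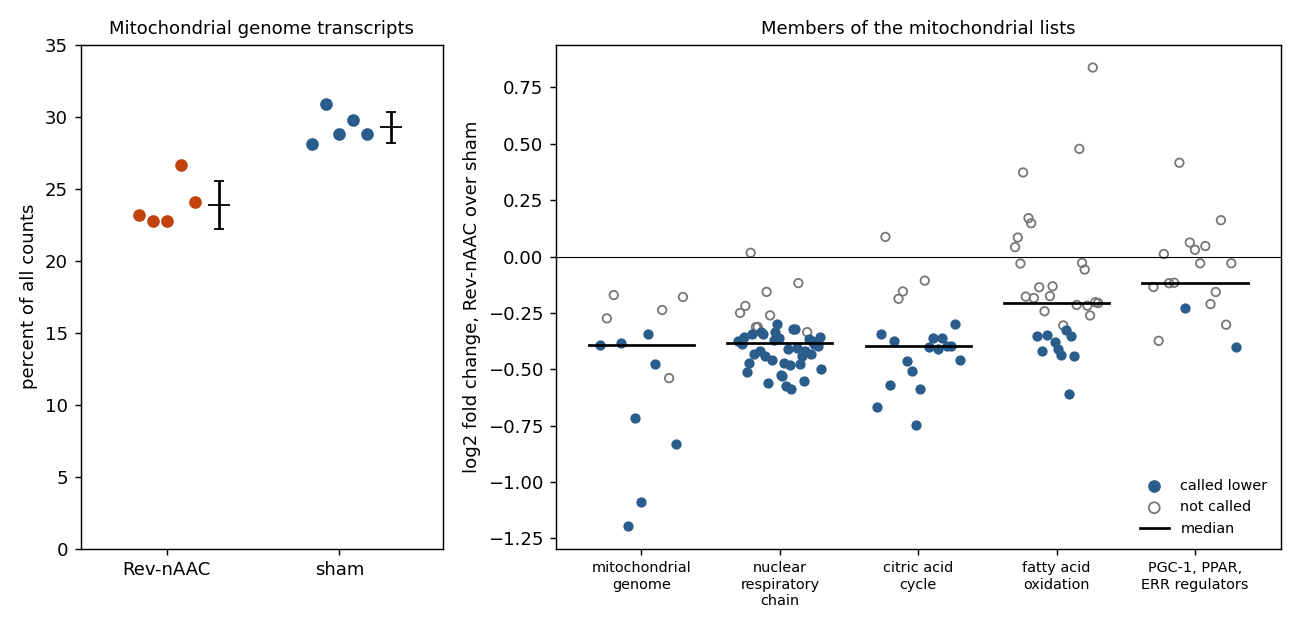
Left, percent of all counts from the mitochondrial genome in each library, with mean and SD; right, log2 fold change of each tested member of 5 lists, Rev-nAAC over sham, filled where called lower, with the list median as a line. The 5 Rev-nAAC libraries (22.7 to 26.6%) lie below the 5 sham libraries (28.1 to 30.9%), and 39 of 48 nuclear respiratory chain genes are filled.

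In glucose use, 1 of 23 genes rose and 7 fell (all genes: 12.2% higher, 13.1% lower), with a median of -0.13. Slc2a1, the basal glucose transporter, averaged 16.9 ± 5.69 CPM in Rev-nAAC and 8.53 ± 0.424 CPM in sham (0.98 ± 0.21, adjusted p 0.00069). The insulin-responsive transporter Slc2a4 was not called (-0.13, adjusted p 0.44). Slc2a12, another glucose transporter, fell by 1.97 (SE 0.29) and Pfkfb1, which makes and breaks down an activator of glycolysis, fell by 1.84 (SE 0.42).

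Proliferation genes were lower in Rev-nAAC ventricles. Of 36 cell cycle genes, 29 fell and 0 rose, with a median of -1.75, the lowest of the lists. Mki67, a marker of cycling cells, had 7.66, 2.17, 21.4, 6.91 and 15.9 CPM in Rev-nAAC, against 33.3, 29.8, 39.4, 49.1 and 47.6 CPM in sham (-1.88 ± 0.52, adjusted p 0.0065). The spread in Rev-nAAC was wide, from replicate 2 at the low end to replicate 3 at the high end, and did not reach the sham range. Ccnb1, a mitotic cyclin, fell by 2.22 (SE 0.49), Cenpe, a kinetochore motor, by 2.16 (SE 0.37), and Anln, a cytokinesis protein, by 1.97 (SE 0.32). Leaving out any 1 of the 10 libraries left 27 to 29 members called lower. The cell type of these transcripts cannot be read from tissue RNA.

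Among growth genes that are normally silenced after birth, 5 of 11 tested fell, 0 rose and 6 were not called (median -0.31, with 4 members above 0). Igf2, a fetal growth factor, had 14.3, 13.9, 10.2, 21.2 and 15.4 CPM in Rev-nAAC, against 72.5, 80.7, 58.0, 69.9 and 65.3 CPM in sham (-2.21 ± 0.23, adjusted p 6.2e-09). H19, the imprinted RNA beside Igf2, fell by 1.34 (SE 0.34), and the imprinted Mest and Plagl1 fell by 1.59 (SE 0.27) and by 1.57 (SE 0.31). The groups did not overlap for any of the 4.

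Among immediate early genes, 11 of 24 rose and 0 fell (median 1.03). Myc had 5.73, 6.16, 7.20, 4.47 and 6.19 CPM in Rev-nAAC and 2.62, 1.71, 2.92, 2.61 and 2.18 CPM in sham (1.30 ± 0.28, adjusted p 0.00062). Maff and Klf4 rose by 1.47 ± 0.29 and by 1.11 ± 0.23. The classical fast responders Fos (1.25, adjusted p 0.21) and Egr1 (0.82, adjusted p 0.30) were not called, with sham replicate 1 the highest sham library for each. Of 26 genes of the unfolded protein and integrated stress responses, 8 rose and 1 fell (all genes: 12.2% higher, 13.1% lower). The genes that rose were Gdf15, Mthfd2, Ddit3, Trib3, Asns, Atf5, Atf4 and Herpud1. Gdf15, a stress cytokine, averaged 7.86 ± 7.20 CPM in Rev-nAAC and 0.683 ± 0.319 CPM in sham (3.52 ± 0.60, adjusted p 3.3e-05), and Ddit3 rose by 1.06 ± 0.19. The endoplasmic reticulum chaperone Hspa5 fell by 0.41 (SE 0.12).

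Of 22 NADPH oxidase and antioxidant genes, 12 rose and 3 fell (median 0.45). Nox4, an oxidase that makes hydrogen peroxide, had 8.59, 8.20, 14, 4.98 and 8.76 CPM in Rev-nAAC, against 1.83, 0.938, 0.802, 1.10 and 1.26 CPM in sham (2.90 ± 0.45, adjusted p 9.6e-06). Cybb, the phagocyte oxidase, fell by 0.99 (SE 0.22). Hmox1, haem oxygenase, had 40.3, 15, 17.6, 38 and 21.8 CPM in Rev-nAAC and 9.54 to 13.5 CPM in sham (1.29 ± 0.24, adjusted p 0.00012). The metal-binding Mt2 and the secreted peroxidase Gpx3 rose by 2.58 ± 0.42 and by 1.42 ± 0.20, while mitochondrial Sod2 fell by 0.48 (SE 0.10).

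In the angiotensin, endothelin and peptide breakdown list, 4 of 16 rose and 2 fell (all genes: 12.2% higher, 13.1% lower). Edn3 (chr2:174760619-174784042), an endothelin, had 10.8, 6.95, 12.4, 12.0 and 20.7 CPM in Rev-nAAC and 1.19, 0.518, 1.12, 0.503 and 0.664 CPM in sham (3.97 ± 0.40, adjusted p 4.1e-09). Mme (chr3:63295211-63383713), neprilysin, which breaks down natriuretic peptides, had 5.05, 0.977, 2.77, 5.91 and 6.34 CPM in Rev-nAAC, against 18.4, 18.1, 13.4, 17.6 and 15.8 CPM in sham (-1.99 ± 0.36, adjusted p 7.9e-05). The groups were well apart for both. Agt (-0.27, adjusted p 0.78), Ace (0.64, adjusted p 0.070) and Agtr1a (-0.40, adjusted p 0.19) of the renin-angiotensin system were not called. Without sham replicate 1, 2 or 3, 2 members were called higher.

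Of 21 angiogenic factors and receptors, 4 rose and 6 fell (all genes: 12.2% higher, 13.1% lower). The lymphatic growth factor Vegfd rose by 1.74 ± 0.25 and the VEGF receptor Flt1 by 0.55 ± 0.10. Angpt1, which stabilises vessels, had 5.65 to 10.6 CPM in Rev-nAAC and 22.3 to 32.5 CPM in sham (-1.98 ± 0.29, adjusted p 3.6e-06), and the peptide hormone Apln fell by 1.75 (SE 0.29). Without Rev-nAAC replicate 1 or sham replicate 4, 3 members were called lower. Of 18 clock genes, 8 rose and 1 fell, but Rev-nAAC libraries were uneven. Nr1d1, the REV-ERB alpha repressor, had 152, 29.2, 11.9, 152 and 12.1 CPM in Rev-nAAC and 18.2, 20.2, 14.2, 14.6 and 18.4 CPM in sham. Replicates 1 and 4 were far above sham, the other Rev-nAAC libraries were near it, and 4 members were called higher without replicate 4. The repressor Bhlhe41 was more even, at 28.9 ± 4.73 CPM in Rev-nAAC and 14.6 ± 1.40 CPM in sham (0.99 ± 0.15, adjusted p 7.7e-06). The labels give no time of day for the sampling, and its part in these values was not tested.

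Of 23 interferon response genes, edgeR's fit of all 9 groups called 0, and DESeq2 called 0 (median -0.02). At an unadjusted p under 0.05, 2 were lower and 0 higher. Leaving out Rev-nAAC replicate 3 or 5 gave 2 called lower, and leaving out sham replicate 2 or 5 gave 1. Limma voom called Dhx58 (adjusted p 0.043), Ifi44 (0.0065) and Oas1a (0.016) lower. EdgeR called Oas1a (0.019) and Rtp4 (0.033) lower in the fit of only the compared groups, and Dhx58 (0.035) lower with sex as a covariate.

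Markers of cell types were called in part, beside 25.3% of all genes (12.2% higher, 13.1% lower). The called share was 25% for heart muscle, 30% for pericyte and smooth muscle and 20% for skeletal muscle markers. It was 12.5% for red cell, 11.1% for lymphocyte and 0% for fat cell markers. It was 37.5% for macrophage markers and 40% for fibroblast, for endothelial, and for Schwann cell and neuron markers. For atrial, mesothelial, and neutrophil and mast cell markers it was 42.9, 50 and 66.7%. These shares are of the markers tested, whereas the summed levels below cover every listed marker among the deposited genes, tested or not. Heart muscle markers were present at high level, with summed levels of 29743 to 45233 CPM in Rev-nAAC and 41862 to 49046 CPM in sham, and 2 of 8 fell. Of 10 fibroblast markers, 3 rose and 1 fell, and their sum was 4272 to 6220 CPM in Rev-nAAC, above the 2927 to 3517 CPM in sham. Gsn, gelsolin, rose by 0.95 ± 0.13 and Dcn, decorin, by 0.75 ± 0.17. Of 16 macrophage markers, 6 fell and 0 rose (median -0.37). Csf1r, the growth factor receptor of macrophages, had 48.9 to 66.2 CPM in Rev-nAAC and 84.5 to 97.5 CPM in sham (-0.81 ± 0.16, adjusted p 0.00017). Cd163 and Timd4, markers of resident macrophages, fell by 1.16 (SE 0.24) and by 1.48 (SE 0.38).

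Of 10 endothelial markers, 2 were called higher and 2 lower (all genes: 12.2% higher, 13.1% lower), and Cdh5, the endothelial cadherin, fell by 0.57 (SE 0.11). The higher call of Vwf, von Willebrand factor (0.62, adjusted p 0.0496), was lost without Rev-nAAC replicate 2 or 5 or any 1 sham library, and its log2 fold change in male libraries was 0.03. Without Rev-nAAC replicate 1 or 2 or sham replicate 4, 1 endothelial marker was called lower. Of 10 pericyte and smooth muscle markers, 3 fell, and their sum was 1384 to 1592 CPM in Rev-nAAC and 1798 to 2151 CPM in sham. Of 5 Schwann cell and neuron markers tested, 2 fell, Dbh among them. The listed markers, tested or not, summed to 10.3 to 14.3 CPM in Rev-nAAC and 19.3 to 25.3 CPM in sham. Neutrophil and mast cell markers summed to 8.07 to 187 CPM in Rev-nAAC and 16.7 to 21.4 CPM in sham, and 4 of 9 rose and 2 fell (1 fell without Rev-nAAC replicate 1, 2 or 3 or sham replicate 1 or 4). The neutrophil gene S100a8 had 77.1 CPM in Rev-nAAC replicate 2, 0.576 to 3.19 CPM in the other 4, and 0.157 to 0.731 CPM in sham. The 8 red cell markers summed to 427 to 10374 CPM in Rev-nAAC and 486 to 1476 CPM in sham, with 1 called by edgeR, 6 by DESeq2 and 7 higher at an unadjusted p under 0.05. By edgeR, 0 were called without Rev-nAAC replicate 2, 3 without replicate 3, and 7 without replicate 1 or 4. Lymphocyte markers summed to 3.34 to 11.6 CPM in Rev-nAAC and 3.90 to 5.92 CPM in sham, and 1 of 9 rose. That call, of the T cell gene Cd8a (2.07, adjusted p 0.0094), was lost without Rev-nAAC replicate 2 (0.064) and in male libraries (0.058). Atrial muscle markers summed to 43.2 to 111 CPM in Rev-nAAC and 32.9 to 126 CPM in sham, with 2 of 7 higher and 1 lower. With Rev-nAAC replicate 2, 3 or 5 or sham replicate 1, 3 or 5 left out, 1 atrial marker was called higher. Fat cell markers summed to 103 to 132 CPM in Rev-nAAC and 104 to 164 CPM in sham, with 0 of 3 called by edgeR, 0 by DESeq2 and 1 lower at an unadjusted p under 0.05. Without any 1 Rev-nAAC library or sham replicate 2, 3, 4 or 5, 2 fat cell markers were called lower, and without sham replicate 1, 1 was called higher. Each of these fits filtered genes anew, so the fat cell markers tested may differ from the 3. Skeletal muscle markers summed to 1.95 to 3.52 CPM in Rev-nAAC and 2.89 to 3.82 CPM in sham, with 1 of 5 lower. Mesothelial markers summed to 4.88 to 16.7 CPM in Rev-nAAC and 9.11 to 12.7 CPM in sham, with 1 of 2 higher (0 without Rev-nAAC replicate 2, 3 or 5 or sham replicate 1, 2, 3 or 5), and 1 further mesothelial marker had 0 counts in all 10 libraries. The number of markers called moved with single libraries. Without Rev-nAAC replicate 4, 5 heart muscle markers were called lower, without sham replicate 1, 4 were, and without sham replicate 4, 1 pericyte and smooth muscle marker was. The part of cell composition in the gene changes above was not tested.

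At 4 weeks the series also holds hearts under lasting constriction. Against the shared sham libraries, nAAC ventricles differed at 6283 genes (40.7%), with 3016 higher (19.5%) and 3267 lower (21.2%). The direct test of Rev-nAAC against nAAC called 394 genes (2.55%), of which 122 (0.79%) were higher and 272 (1.76%) lower in Rev-nAAC. This count was unstable. It was 653 without Rev-nAAC replicate 3, 194 without Rev-nAAC replicate 4, 146 without Rev-nAAC replicate 5, 42 without nAAC replicate 3 and 1423 without nAAC replicate 1. With the fit limited to the 10 libraries, edgeR called 0 genes and 1174 had an unadjusted p under 0.05. DESeq2 on all libraries called 663.

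Within the load response list, 10 of 24 were lower in Rev-nAAC than in nAAC and 1 was higher. Nppa averaged 2955 ± 1899 CPM in Rev-nAAC and 9560 ± 4147 CPM in nAAC (-1.69 ± 0.45, adjusted p 0.033), and Myh7 averaged 1334 ± 1262 CPM in Rev-nAAC and 4513 ± 1403 CPM in nAAC (-1.76 ± 0.50, adjusted p 0.046). Xirp2 averaged 1018 ± 321 CPM in Rev-nAAC and 2033 ± 406 CPM in nAAC (-1.0 ± 0.22, adjusted p 0.012), and Des was lower by a difference of -0.77 ± 0.12 (adjusted p 0.00087). Tead4 was the member that was higher in Rev-nAAC (0.82 ± 0.20, adjusted p 0.019). Acta1 and Ankrd1 were not called, at -0.28 ± 0.46 (adjusted p 0.80) and -0.88 ± 0.33 (adjusted p 0.14).

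Of the TGF-beta and matricellular list, 6 were lower in Rev-nAAC than in nAAC and 0 higher. Ccn2 had 128 to 482 CPM in Rev-nAAC and 221 to 1496 CPM in nAAC (-1.65 ± 0.37, adjusted p 0.014). Of the mitochondrial genome, nuclear respiratory chain and citric acid cycle lists, 0 members were called between Rev-nAAC and nAAC, where the list medians were -0.18, -0.05 and 0.06. Among the 36 cell cycle genes 1 was called, Cenpa, a centromeric histone (-0.55, adjusted p 0.018). Mme lay between nAAC and sham and averaged 4.21 ± 2.27 CPM in Rev-nAAC and 0.902 ± 0.485 CPM in nAAC (2.21 ± 0.41, adjusted p 0.0036). Hmox1 (1.05 ± 0.24, adjusted p 0.014), the collagen VI chain Col6a6 (2.24 ± 0.48, adjusted p 0.010) and Plekhh1 (1.21 ± 0.34, adjusted p 0.046) were higher in Rev-nAAC, and Drd2 was lower (-2.31 ± 0.46, adjusted p 0.0066).

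The 4-week differences were set against those at 6 and 8 weeks, where Rev-nAAC and sham differed at 2634 (17.1%) and 5500 genes (35.6%). At 6 weeks 8.66% of genes were higher and 8.39% lower, and at 8 weeks 18.3% were higher and 17.3% lower. The difference itself changed between 4 and 6 weeks for 492 genes (3.19%), with 1.14% higher and 2.05% lower at 4 weeks. It changed between 4 and 8 weeks for 1576 (10.2%), with 5.4% higher and 4.8% lower at 4 weeks. The first count was 323 without sham 4-week replicate 4 and 294 without Rev-nAAC replicate 2 and sham replicate 1 of 4 weeks. The second was 312 in male libraries alone. At 6 weeks 2 of the 5 Rev-nAAC libraries were female and at 8 weeks 4 were, while every sham library was male, so sex balance differed between the ages. The male count of 312 rests at 8 weeks on 1 Rev-nAAC library, assumed to vary like the other groups. The ages are separate groups of libraries.

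The load response list had more members called higher at 4 weeks than at the later ages. It had 19, 12 and 8 members called higher at 4, 6 and 8 weeks (0, 0 and 2 called lower), and the test of the difference found 2 higher at 4 than at 6 weeks and 9 higher at 4 than at 8 weeks. The log2 fold change of Nppa was 5.12, 3.15 and 2.33, and its difference between 4 and 8 weeks was 2.78 ± 0.63 (adjusted p 0.0035). For Myh7 it was 4.38, 0.78 and 0.02, with differences of 3.61 ± 0.71 from 6 weeks (adjusted p 0.0023) and 4.36 ± 0.71 from 8 weeks (adjusted p 0.00016). Myh7 averaged 1334, 416 and 787 CPM in Rev-nAAC at the 3 ages and 63.9, 243 and 774 CPM in sham, so the sham level was higher at each later age. Acta1 (3.15, 2.85 and 1.45) was called at every age, and its differences between ages were not (adjusted p 0.88 and 0.087).

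Cell cycle genes went the other way at 6 weeks. At 4 weeks 29 of 36 were lower, at 6 weeks 20 were higher and 1 lower, and at 8 weeks 1 was higher and 4 lower. The difference between 4 and 6 weeks was called for 27, all lower at 4 weeks. Ccnb1 changed by -2.22 at 4 weeks and 4.14 at 6 weeks, a difference of -6.36 ± 0.97 (adjusted p 0.00014). Mki67 averaged 10.8, 5.16 and 2.02 CPM in Rev-nAAC at 4, 6 and 8 weeks, against 39.8, 0.951 and 3.28 CPM in sham. The sham level at 4 weeks was thus the highest of the 6 groups, and the sham level at 6 weeks the lowest. Bub1 (-5.23), Hmmr (-5.38), Nuf2 (-5.29) and Depdc1a (-5.41) were the other largest differences in the lower direction between 4 and 6 weeks. That ranking was limited to called genes whose highest compared group averaged 2 CPM or more.

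The differences below were ranked only among called genes whose highest compared group averaged 2 CPM or more. In that ranking the largest in the higher direction between 4 and 6 weeks were in Nmrk2 (5.07 ± 1.08), Lcn2, Ciart (3.92 ± 0.62), Myh7 and Cyp1a1 (3.56 ± 0.98). Nmrk2, a kinase of NAD synthesis in muscle, had 15.9, 125, 34.2, 10.02 and 5.33 CPM in Rev-nAAC at 4 weeks, against 1.10 to 2.47 CPM in sham. Between 4 and 8 weeks the membrane-bending protein Pacsin1 differed most in the higher direction (5.57 ± 0.69, adjusted p 2.1e-06), although it was not called at 4 weeks (0.37, adjusted p 0.61). Nmrk2 (5.51), Chil1 (5.42), Lcn2 (4.44) and Myh7 were the others. The largest in the lower direction were the fat cell gene Cfd and Car3, Fam124b (-4.57 ± 0.84), Cd247 (-3.34 ± 0.57) and Npas2 (-3.30 ± 0.62). At 4 weeks sham replicate 1 held 6.22 CPM of Cfd and 18.4 CPM of Car3, whereas the other sham libraries held at most 0.226 and 0.647 CPM, and Rev-nAAC libraries at most 0.0814 and 0.144 CPM. Car3 at 4 weeks (-5.91, adjusted p 0.016) was not called without that library (-2.01, adjusted p 0.53). On the 8-week side, Rev-nAAC replicate 4 had 0.0361% of its counts from fat cell genes. The other Rev-nAAC libraries of that age had 0.0137 to 0.0152%.

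The difference between Rev-nAAC and sham also changed with age in members of other lists. For clock genes this difference was called higher at 4 weeks than at 6 weeks in 7 of 18 (2 lower). It was called higher at 4 weeks than at 8 weeks in 8 (3 lower). The log2 fold change of Bhlhe41 was 0.99, -0.50 and -0.64 at 4, 6 and 8 weeks, with a difference from 6 weeks of 1.49 ± 0.22 (adjusted p 7.2e-05). Tcap changed by 0.86, -0.86 and -0.45, and its difference from 6 weeks was 1.72 ± 0.28 (adjusted p 0.00028). Of nuclear respiratory chain genes, 39, 7 and 4 were lower at 4, 6 and 8 weeks, yet the difference between ages was called for 0 from 6 weeks and for 4 from 8 weeks. Aqp4 was lower in Rev-nAAC at each age (-6.08, -3.08 and -4.62), most so at 4 weeks against 6 weeks (difference -3.0 ± 0.69, adjusted p 0.0088). Igf2 was also lower at each age (-2.21, -1.11 and -1.03), with differences of -1.10 ± 0.32 (adjusted p 0.042) and -1.18 ± 0.32 (adjusted p 0.013) from 6 and 8 weeks.

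**Figure D5:**
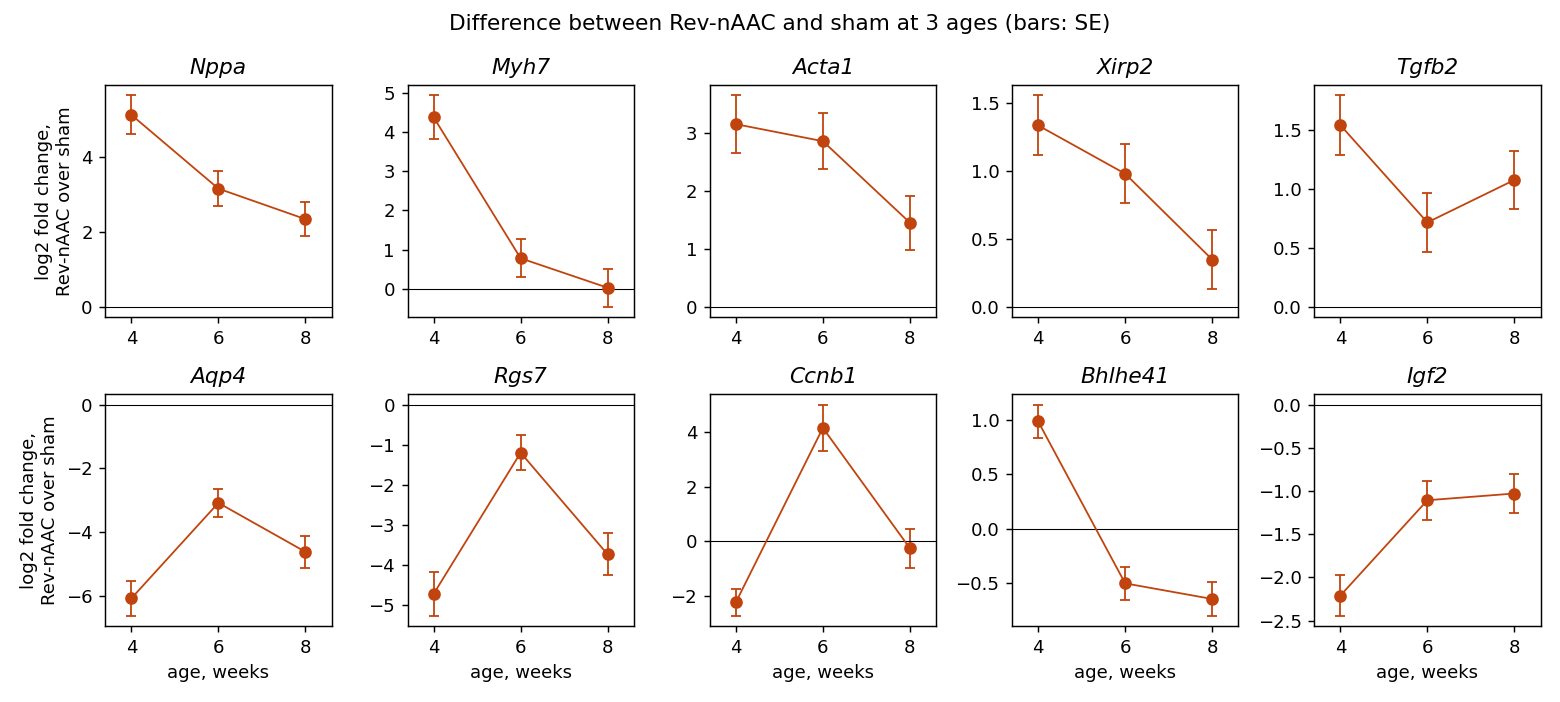
Log2 fold change of 10 genes, Rev-nAAC over sham, at 4, 6 and 8 weeks of age, with bars for the SE derived from edgeR's F statistic. The lines join separate groups of libraries. Myh7 is near 0 at 8 weeks (0.02) after 4.38 at 4 weeks, Ccnb1 is below 0 at 4 weeks and above 0 at 6 weeks, and Aqp4 and Igf2 stay below 0 at each age.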

How the data were processed

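RNA was measured by RNA-seq in 45 libraries of mouse left ventricle, 9 groups of 5. Per the labels' protocols, total RNA was extracted with Trizol and made into cDNA libraries. Per the submitters' processing notes, the tools named are HISAT2 2.1.0, HTSeq 0.11.2 and fastp 0.20.1, and the builds named are GRCm38 and mm10. The annotation, the strand setting and the treatment of reads shared by several genes are not given in the sources used here. The authors deposited raw counts per gene, with no normalization, for 27007 genes.

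The 10 libraries compared were taken by their labels: Rev-nAAC and sham at 4 weeks. Counts were tested with edgeR 4.0.16 (quasi-likelihood, robust, TMM scaling) in 1 model of all 9 groups. Genes were kept by filterByExpr (minimum count 10, minimum total 15), which left 15444, and p-values were adjusted over all of them by Benjamini-Hochberg. A call is an adjusted p under 0.05. Every adjusted p in the text comes from this model unless another tool is named. Log2 fold changes are given with a standard error (SE) derived from the test. It is the absolute log2 fold change divided by the square root of edgeR's F statistic. CPM are edgeR's counts scaled to a common TMM-normalized library size, and mean ± SD is over 5 libraries. Library totals are counted reads, and no interval for a single level is given except the exact interval of the Vgll2 ratio, which covers counting error only. The share of mitochondrial counts was compared with an exact permutation test. The age comparison tested the difference of differences in the same model.

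Genes named are the 14 largest rises and falls whose groups did not overlap and whose higher group averaged 2 CPM or more. Also named were the load response list and up to 4 members of each other list with the smallest p. The 5 largest differences in each direction between ages were added, ranked among called genes whose highest compared group averaged 2 CPM or more. Predicted or unnamed genes and sex-linked genes were left out of these rankings. Other list members were named to describe a list, after their values were seen. The comparison, the lists and the rule were chosen with earlier results of these data known. Some genes that these rules select are not reported here. Of the listed symbols, 6 were not in the table. Gene coordinates and promoters are from RefSeq GRCm38.p6, with 25581 symbols matched.

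Alternatives were DESeq2 1.42.0, limma 3.58.1 (voom with quality weights), RLE scaling, no filter, an adjusted p under 0.01, the compared groups alone, a replicate block, male libraries, sex as a covariate, no mitochondrial transcripts, the library of conflicting labels left out or counted as sham, and each library left out in turn. Leaving out in turn the libraries of the other groups was added after seeing the data. Rev-nAAC replicate 2 and sham replicate 1 were also left out together. The fit was tested on simulated counts. R 4.3.3, Python 3.11.15, pandas 2.3.3 and scipy 1.17.1 were used.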

Additional observations from a re-analysis of the deposited data

Results flagged for a closer look

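Among 108 checks of single libraries within a group of 5, 15 stood apart from the rest of their group by Dixon's criterion, where chance gives about 1 in 20. Sham replicate 1 held 0.0161% of its counts from fat cell genes, 0.0123% from atrial genes, 130 CPM of Nppa, 616 CPM of Acta1 and 0.0305 CPM of Vgll2. Rev-nAAC replicate 2 held 33.6 CPM of Chil1, 88.2 CPM of Lcn2, 3573 CPM of Myh7 and 0.326 CPM of Drd2. Rev-nAAC replicate 3 held 17.4 CPM of Tnmd, 224 CPM of Thbs4 and 4.87 CPM of Lman1l. The others were sham replicate 2 for Krt8 (0 CPM), sham replicate 3 for Nppb (283 CPM) and sham replicate 5 for Chodl (0.126 CPM).

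The difference between Rev-nAAC and sham was larger or smaller at 4 weeks than at a later age by edgeR's test of the difference for several named genes. Against 6 weeks, the log2 difference of differences was 4.49 for Lcn2, 3.98 for Krt8 and 3.61 for Myh7. It was -3.0 for Aqp4, -3.53 for Rgs7, -3.65 for Lypd8l, -1.94 for Pla2g5, -1.97 for Adamts12, -1.48 for Plekhh1 and -2.70 for Mmp13. Against 8 weeks it was above 0 in the load response for Sprr1a (5.02), Myh7 (4.36), Ankrd2 (3.67), Nppa (2.78), Tubb6 (1.13), Xirp2 (0.99), Synpo2l (0.78), Flnc (0.73) and Cryab (0.60). Outside the load response it was above 0 for Chil1 (5.42), Lcn2 (4.44), Lman1l (3.63), Thbs4 (3.29), Tll2 (2.75), Serpinb1c (2.72) and Aqp8 (2.39). It was below 0 for Lypd8l (-1.93) and Adamts12 (-2.78). For Tubb6 and Flnc the 4-week difference itself was not called, and both were lower in Rev-nAAC at 8 weeks (-1.33 and -0.42).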

How the results depend on the processing

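The count of 3902 genes for Rev-nAAC against sham at 4 weeks was 2326 at an adjusted p under 0.01 and 3138 to 3829 with each library left out in turn. It stayed within 1.5 times under the other alternatives, and DESeq2's 4185 calls shared 3853 with it. nAAC against sham (6283) gave 3621 with only the compared groups and a replicate block, and 5227 to 6156 without single libraries other than nAAC replicate 1, without which it was 6832. Rev-nAAC against nAAC (394) gave 663 with DESeq2, 710 with limma voom, 749 in male libraries, 1215 with nAAC replicate 1 counted as sham, 1423 with it left out, 242 with no filter, 49 at 0.01, and 42 to 653 without single libraries. With only the compared groups edgeR called 0 (1174 at an unadjusted p under 0.05), and 1 with a replicate block. The 6-week count (2634) was 4556 with voom, 1168 at 0.01 and 1812 to 3400 without single libraries. The 8-week count (5500) was 1907 in male libraries, where 1 Rev-nAAC library remains and is assumed to vary like the other groups, and 4857 to 5919 without single libraries. For 4 against 6 weeks (492) the counts were 748 with DESeq2, 1603 with voom, 744 in male libraries, 208 with nAAC replicate 1 counted as sham, 860 with only the compared groups, 294 without Rev-nAAC replicate 2 and sham replicate 1, 181 at 0.01 and 323 to 634 without single libraries. For 4 against 8 weeks (1576) they were 3636 with voom, 312 in male libraries (again with 1 Rev-nAAC library at 8 weeks), 618 at 0.01 and 1264 to 2332 without single libraries. The mitochondrial share differed by -6.09 to -4.98 percentage points without single libraries. Slc4a1, a red cell gene, turned to -0.22 in male libraries (adjusted p 0.85). Over 188 named genes and all settings, 3859 values kept their side of the threshold, 178 lost the call, 76 gained it and 1 called value reversed. Values called in neither fit were counted as kept whatever their direction. Of the losses, 29 came from counting nAAC replicate 1 as sham. The causes were not tested. Replicate numbers are shared between groups but same-numbered libraries of Rev-nAAC and sham did not deviate together (r -0.0903 to 0.0803), so they pair nothing. With the replicate block, 3004 genes were called, against 3961 without it in the same libraries. Depth was even between libraries, and the lowest levels, such as 0.0288 CPM of Rgs7 in a Rev-nAAC library, rest on 1 read.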
